A study of Sus scrofa with 6 samples.

Results

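Lipoprotein lipase and the proteins around it decide how much of the triglyceride carried in blood a muscle can take up as fatty acids. Muscle fibres and adipocytes make the enzyme, LMF1 lets it fold, GPIHBP1 carries it across the capillary endothelium and holds it at the vessel wall, and ANGPTL4, a secreted protein induced by fasting and by fatty acids, inactivates it. The fatty acids it releases, and the particles it works on, then enter cells through membrane proteins such as CD36, the SLC27A transport proteins and VLDLR, and FABP3 and FABP5 carry fatty acids in the cytosol. The 10 genes described here, LPL, ANGPTL4, GPIHBP1, LMF1, CD36, FABP3, FABP5, VLDLR, SLC27A1 and SLC27A4, were picked by name as this axis out of 25878 genes in the deposited table.

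The RNA came from the longissimus dorsi, the long muscle along the spine, of Nanyang Black pigs, a Chinese breed. There were 3 pigs with high fat deposition (HF01, HF02 and HF03) and 3 with low fat deposition (LF01, LF02 and LF03), all labelled as 180 days old, with 1 library per pig. The labels name no treatment and no engineered allele, and per the study's methods the pigs were female siblings kept in a shared pen, so that the pigs are separate animals but not unrelated ones. The values are FPKM, fragment numbers scaled by transcript length and by the mapped fragments of the library, so levels of different genes can be set side by side. Wherever 3 values of a group follow each other, they stand for pigs 01, 02 and 03 of that group in this order. Read counts per gene were not used here, so the number of reads behind each value is unknown, though the study reports the reads of each library.

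Of the 10 genes, 8 carry their symbol in the deposited table. GPIHBP1 (ENSSSCG00000034689) was matched through its gene ID, and CD36 (ENSSSCG00000015405) by position, since 98.4% of its gene model lies inside the RefSeq gene CD36 and covers 100% of it. All 10 averaged 0.5 FPKM or more over the 6 pigs, a filter that kept 11136 genes for the test with limma on log2(FPKM + 0.1).

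Some libraries stood apart. ACTA1, the skeletal muscle actin, was listed at 0 in HF01 and HF03. In LF02, COX1, ATP8, ATP6 and COX3 of the mitochondrial genome were listed at 0 and all mitochondrial genes held 17.4% of summed FPKM, against 46.3% to 59.3% in the other 5 pigs. Summed FPKM ran from 734973 to 961903 in HF and from 598096 to 868684 in LF. The summed level of 9 skeletal muscle markers, ACTA1 included, ran from 8585 to 19126 FPKM in HF and from 18254 to 22500 FPKM in LF, and without ACTA1 the 8 others summed to between 5395 and 8612 FPKM in HF and between 7359 and 7981 FPKM in LF. Muscle markers were thus abundant in every library. None of the 10 genes was listed at 0 in any pig.

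In HF muscle the inhibitor ANGPTL4 and the endothelial anchor GPIHBP1 were below LF in every pig, CD36 was lower on average, and LPL itself was higher on average with overlapping groups. None of the 10 genes passed limma at an adjusted p under 0.05, a threshold that 8 of the 11136 genes passed (0.0718%; 4 higher and 4 lower in HF). At an unadjusted p under 0.05, 3 of the 10 were lower in HF (ANGPTL4, GPIHBP1 and CD36) and 0 were higher, where 13.8% of all genes were lower and 11.0% higher by that rule. Where only genes averaging 5 FPKM or more entered, 2 of 8 axis genes (ANGPTL4 and CD36) were lower, close to the 22.7% of all genes there. At an adjusted p under 0.10, 2 of the 10 were lower (ANGPTL4 and GPIHBP1), against 3.49% of all genes. Without HF01, HF02, LF01 or LF03 the count at an unadjusted p was 2, with CD36 lost, and without HF03 or LF02 it was 3. LPL was higher at an unadjusted p without HF01, without LF02, under quantile normalization, and where values above 0 in all 6 pigs were required. CD36 was also lost under quantile normalization.

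**Figure D1:**
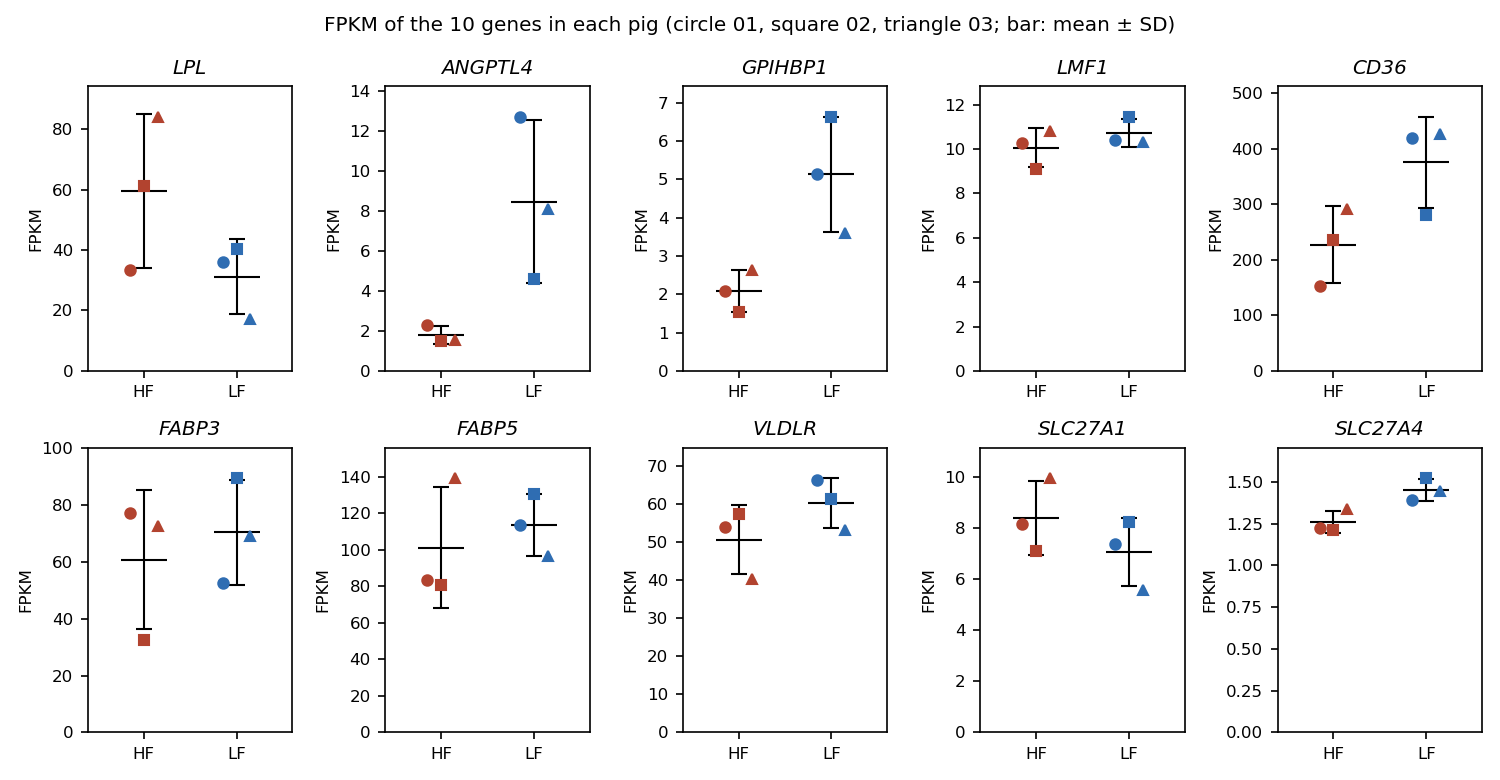
FPKM (vertical axes, from 0) of each of the 10 genes in 3 HF pigs (red, left) and 3 LF pigs (blue, right). Points are pigs and bars are the group mean ± SD (n = 3). ANGPTL4 lay between 1.51 and 2.32 FPKM in HF and between 4.58 and 12.7 FPKM in LF, while LMF1 lay between 9.09 and 11.5 FPKM over all 6 pigs.

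LPL, the enzyme that splits triglyceride in blood lipoproteins, occupies chromosome 14 from 4104768 to 4136593 (build Sscrofa11.1, as for all positions here). It had 33.3, 61.0 and 84.1 FPKM in the HF pigs, against 36.1, 40.4 and 17.0 FPKM in the LF pigs. HF02 and HF03 were above every LF pig, but HF01 was below LF01 and LF02, so the groups overlapped. The means were 59.5 ± 25.5 in HF and 31.2 ± 12.4 FPKM in LF (SD, n = 3 each), and the log2 fold change was 0.93 (95% interval -0.03 to 1.89), which did not pass limma (adjusted p = 0.213). It was 0.54 without LF03, 0.63 without HF03 and 1.29 without HF01. LPL differed more within the groups than between their means: the highest HF pig had 2.53 times the lowest and the highest LF pig 2.37 times the lowest, while the HF mean was 1.91 times the LF mean.

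LPL was lowest among HF pigs in HF01 and lowest among LF pigs in LF03, and most adipocyte markers were low in the same pigs. Of 8 tested adipocyte markers, 7 were lowest among HF pigs in HF01 and 6 were lowest among LF pigs in LF03. This was not particular to adipocyte markers. Of 10 fibroblast and fibro-adipogenic markers, 9 were lowest among HF pigs in HF01 and 7 among LF pigs in LF03. Of 14 other lipase regulators and partners, 12 were lowest among HF pigs in HF01, though only 4 among LF pigs in LF03. ADIPOQ, the adipocyte hormone adiponectin, had 2.69, 34.7 and 24.1 FPKM in the HF pigs, against 11.6, 8.98 and 3.83 FPKM in the LF pigs. PLIN1, the lipid droplet coat of adipocytes, was at 1.21, 13.0 and 12.6 FPKM in HF, against 3.42, 3.92 and 1.17 FPKM in LF. These 2 genes were named after their values were seen, and their lowest pig in each group was that of LPL, with overlap between the groups. The 2 adipocyte markers of smallest p were lower in HF by sign, unlike LPL: LIPE, the hormone-sensitive lipase (log2 fold change -2.01, limma adjusted p = 0.182), which was lowest among LF pigs in LF02, and CFD, the secreted factor adipsin (-0.46, limma adjusted p = 0.287). The summed level of the 11 adipocyte markers in the table ran from 476 to 580 FPKM in HF and from 524 to 681 FPKM in LF. Most of that was GPD1, which muscle also expresses, and without it the sums ran from 75.5 to 163 FPKM in HF and from 124 to 191 FPKM in LF. Over the 8 tested adipocyte markers the median log2 fold change was 0.47 (0.88 without HF01, 0.18 without HF02 and 0.14 without HF03), 5 were positive, and 0 passed limma at an adjusted p under 0.05 (0 higher and 1 lower at an unadjusted p under 0.05). Of 11 endothelial markers, all 11 were highest among HF pigs in HF03 and 10 were lowest among LF pigs in LF03, the pigs where LPL was highest and lowest, while the lowest HF pig was HF01 for 6 and HF02 for 5 of them. HF03 was also highest among HF pigs for 8 of 8 macrophage, 6 of 6 Schwann cell and 9 of 10 slow and oxidative fibre markers. The same held for 7 of the 10 axis genes, but for 3 of 8 adipocyte and 2 of 9 fast fibre markers. The part of fat cells and vessels in the LPL values was not tested. In bulk tissue, fewer cells of a type and less RNA per cell cannot be told apart.

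ANGPTL4, which unfolds and inactivates lipoprotein lipase, lies on chromosome 2 from 70905764 to 70913026. It had 2.32, 1.51 and 1.55 FPKM in the HF pigs, against 12.7, 4.58 and 8.11 FPKM in the LF pigs. Every HF pig was below every LF pig, and the LF pigs were further apart from each other than the HF pigs were. The means were 1.79 ± 0.454 in HF and 8.47 ± 4.08 FPKM in LF (SD, n = 3 each), so that the HF mean was 0.212 of the LF mean. The log2 fold change was -2.09 (SE 0.36, 95% interval -2.91 to -1.26). By p-value ANGPTL4 ranked 52 among 11136 genes in limma, and its adjusted p of 0.0738 did not reach 0.05. The adjusted p ran from 0.0330 without LF02 to 0.261 without HF03 over the settings tried. The exact permutation test on its log2(FPKM + 0.1) gave p = 0.1 (two-sided), the smallest that 3 pigs against 3 can give.

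GPIHBP1, the capillary protein that lipoprotein lipase needs to reach the vessel lumen, lies on chromosome 4 from 1252749 to 1257556. It had 2.10, 1.55 and 2.64 FPKM in the HF pigs, against 5.15, 6.63 and 3.61 FPKM in the LF pigs. The groups did not overlap, and the gap between HF03 and LF03 was the narrowest. The means were 2.10 ± 0.547 in HF and 5.13 ± 1.51 FPKM in LF (SD, n = 3 each). The log2 fold change was -1.24 (SE 0.28, 95% interval -1.89 to -0.59), with an adjusted p in limma of 0.0892, above 0.05, and 0.0719 to 0.261 over the settings tried. The exact permutation p was again 0.1, its smallest value here.

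Since GPIHBP1 is made by capillary endothelium, its level was also set against 11 other endothelial markers in the same pig, a comparison added after the data were seen. The mean log2 level of those markers was 2.99, 3.01 and 3.39 in the HF pigs, against 2.88, 3.21 and 2.49 in the LF pigs. Those values overlapped, with a difference of 0.27 (HF less LF, exact permutation p = 0.4). The log2 level of GPIHBP1 less that mean was -1.85, -2.29 and -1.94 in HF, against -0.49, -0.46 and -0.60 in LF. The difference of -1.51 was larger in size than for GPIHBP1 alone, the groups did not overlap, and the exact permutation p was 0.1. Of the 11 endothelial markers, 10 had a positive log2 fold change, 0 had an adjusted p under 0.05 in limma and 0 an unadjusted p under 0.05. CDH5, the adhesion protein of endothelial junctions, had a log2 fold change of 0.58 (limma adjusted p = 0.220), and KDR, a receptor for vascular growth factor, had 0.52 (limma adjusted p = 0.238). The part of vessels, in number or in kind, in the GPIHBP1 values was not tested.

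LMF1, the endoplasmic reticulum protein that lets the lipase fold, lies on chromosome 3 from 40841288 to 40929181. It had 10.3, 9.09 and 10.8 FPKM in the HF pigs, against 10.4, 11.5 and 10.3 FPKM in the LF pigs. The groups overlapped and the 6 pigs were close to each other. Its log2 fold change was -0.09 (95% interval -0.50 to 0.31, limma adjusted p = 0.778), and the sign turned (0.07) under quantile normalization.

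CD36, the membrane protein through which much long-chain fatty acid enters muscle, lies on chromosome 9 from 99684188 to 99782278. It had 154, 236 and 292 FPKM in the HF pigs, against 420, 280 and 426 FPKM in the LF pigs. LF01 and LF03 were well above all HF pigs, but HF03 was just above LF02, so the groups overlapped by that pair. The means were 227 ± 69.4 in HF and 376 ± 82.6 FPKM in LF (SD, n = 3 each). Limma gave a log2 fold change of -0.75 (SE 0.29, 95% interval -1.42 to -0.08), which did not pass (adjusted p = 0.167). Over the settings tried the adjusted p ran from 0.10 without LF02 to 0.431 under quantile normalization. Adipocytes, macrophages and endothelium also express CD36, and the summed level of 11 macrophage markers ran from 11.6 to 39.3 FPKM in HF and from 16.3 to 19.8 FPKM in LF. HF03 was highest among HF pigs for both CD36 and that macrophage sum. In LF01, LF02 and LF03 the sum was 16.26, 19.85 and 19.76 FPKM, so LF02 and LF03 were nearly level. Of 8 tested macrophage markers, LF03 was highest among LF pigs for 5 and LF02 for 3, while LF01 was lowest for 7. LF02, the lowest LF pig for CD36, was highest among LF pigs for that sum and for 10 of 11 endothelial markers. Of 8 tested adipocyte markers, LF01 was highest among LF pigs for 5 and LF03 lowest for 6. The log2 fold change of CD36 was -0.49 without HF01 and -0.43 under quantile normalization. The part of these cells in the CD36 values was not tested.

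VLDLR, a receptor that binds triglyceride-rich particles beside the lipase, lies on chromosome 1 from 219175737 to 219210338, where another gene model overlaps it. It had 54.1, 57.4 and 40.3 FPKM in the HF pigs, against 66.2, 61.3 and 53.2 FPKM in the LF pigs. HF01 and HF02 were above LF03 alone, so the groups overlapped. On the log2 scale the fold change was -0.26 (95% interval -0.75 to 0.23, limma adjusted p = 0.478), and it was 0.03 under quantile normalization.

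The fatty acid transport proteins SLC27A1 and SLC27A4 also activate fatty acids to acyl-CoA. SLC27A1, known for its part in muscle and fat, lies on chromosome 2 from 60203377 to 60235683. Its level was 8.16, 7.12 and 9.97 FPKM in the HF pigs, against 7.37, 8.23 and 5.60 FPKM in the LF pigs. Its groups overlapped, with HF03 highest and LF03 lowest, as for LPL. This gave a log2 fold change of 0.25 (95% interval -0.25 to 0.76, limma adjusted p = 0.510). SLC27A4, known from the intestine and skin, lies on chromosome 1 from 268773860 to 268788207. Its level was 1.23, 1.21 and 1.34 FPKM in HF, against 1.39, 1.52 and 1.45 FPKM in LF. Its HF pigs were all below its LF pigs by a narrow gap. The means were 1.26 ± 0.0670 in HF and 1.45 ± 0.0660 FPKM in LF (SD, n = 3 each), and the log2 fold change of -0.19 (95% interval -0.68 to 0.29) did not pass limma (adjusted p = 0.603). With ANGPTL4 and GPIHBP1 this made 3 of 10 genes whose HF and LF values lay apart with HF lower, a pattern found in 17.1% of all tested genes. The opposite pattern was found in 0 of the 10, against 12.8% of all tested genes.

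FABP3, the fatty acid binding protein of heart and skeletal muscle, lies on chromosome 6 from 87941136 to 87951610 and overlaps ZCCHC17, which had a mean of 2.17 FPKM. FABP3 had 77.2, 32.6 and 72.5 FPKM in the HF pigs, against 52.6, 89.5 and 69.2 FPKM in the LF pigs. HF02 was the lowest pig and the others overlapped. Its log2 fold change was -0.28 (95% interval -1.10 to 0.55, limma adjusted p = 0.666), and it was 0.12 without HF02 and 0.02 under quantile normalization. FABP3 is richer in slow, oxidative fibres, and the summed level of 10 slow and oxidative fibre markers was likewise lowest in HF02, at 2951 FPKM, with 7285 in HF01 and 13152 in HF03, against 4532, 3192 and 9402 FPKM in LF01, LF02 and LF03. In LF the order differed: LF02 was highest for FABP3 and lowest for those markers.

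FABP5, the epidermal form that endothelium, fat and macrophages also express, lies on chromosome 4 from 55276620 to 55282908. It had 83.5, 80.9 and 139 FPKM in the HF pigs, against 114, 130 and 96.5 FPKM in the LF pigs. HF03 was the highest of all pigs and the groups overlapped. The log2 fold change was -0.20 (95% interval -0.80 to 0.40, limma adjusted p = 0.667), and it was 0.10 under quantile normalization. Within the groups FABP5 had the same high pigs as the endothelial sum, HF03 and LF02. Of 8 keratinocyte markers, KRT5, KRT1 and IVL were listed at 0 in every pig, while TP63 ran from 5.57 to 8.56 FPKM in HF and from 8.05 to 11.5 FPKM in LF, and DSP from 3.15 to 3.48 FPKM in HF and from 2.99 to 4.0 FPKM in LF. KRT14 was low, from 0.407 to 1.04 FPKM in HF and from 0.0146 to 0.270 FPKM in LF. The part of such cells in the FABP5 values was not tested.

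**Figure D2:**
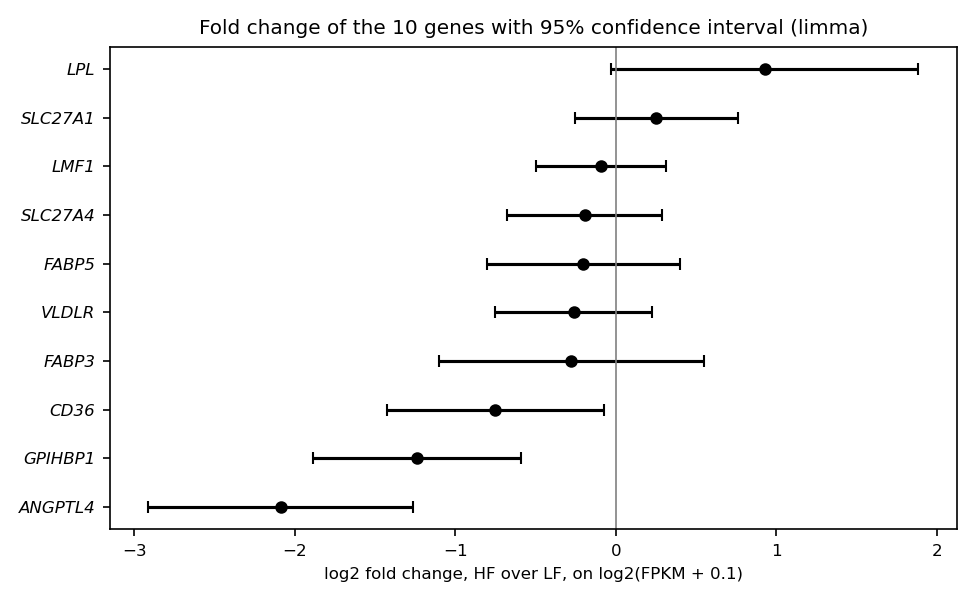
Log2 fold change of each gene, HF over LF, on the log2(FPKM + 0.1) scale (horizontal axis), with the 95% confidence interval from limma, ordered by size. The intervals of ANGPTL4, GPIHBP1 and CD36 lie below 0, those of the other 7 genes include 0, and none of the 10 passed at an adjusted p under 0.05.

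Of the 10 genes, 8 were lower by sign in HF and 2 higher, and their median log2 fold change was -0.23 (-0.12 without HF02 and -0.13 without LF02). Over all tested genes 51.9% were negative, with a median of -0.03. Most of the 10 are abundant, and among all genes averaging 5 FPKM or more 68.1% were negative, with a median of -0.21, where 6 of the 8 axis genes past that level were negative. The split of the 10 depended on the scaling: under quantile normalization 4 were negative and 6 positive, since LMF1, VLDLR, FABP3 and FABP5 changed sign, while ANGPTL4, GPIHBP1, CD36, LPL, SLC27A1 and SLC27A4 kept theirs.

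Ratios of 2 genes in the same library do not depend on the scaling of the libraries, as long as each library is scaled by a single factor, apart from the small constant added. For each of 4 pairs the FPKM of the first gene was divided by that of the second, which gave the ratios printed here. The log2 differences and their tests used FPKM + 0.1 for both genes. The ratio of ANGPTL4 to LPL, inhibitor to enzyme, was 0.0696, 0.0247 and 0.0185 in the HF pigs, against 0.353, 0.113 and 0.477 in the LF pigs. All HF pigs were below all LF pigs, and the nearest pair was HF01 and LF02. The log2 difference was -3.01 (HF less LF; -3.36 under quantile normalization), and the exact permutation p of 0.1, the smallest possible, became 0.133 when adjusted over the 4 ratios. The ratio of GPIHBP1 to LPL, anchor to enzyme, was 0.0630, 0.0254 and 0.0314 in HF, against 0.143, 0.164 and 0.212 in LF. These groups too were apart, with a log2 difference of -2.17 (exact permutation p = 0.1, adjusted 0.133), and the LF pigs were closer to each other than for either gene alone in FPKM. HF01, whose LPL lay within the LF range, was below every LF pig in both ratios.

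The ratio of SLC27A1 to SLC27A4 was 6.65, 5.87 and 7.46 in the HF pigs, against 5.30, 5.40 and 3.87 in the LF pigs. Each of the HF pigs was above all LF pigs, with a log2 difference of 0.45 (exact permutation p = 0.1, adjusted 0.133), which was 0.29 without LF03 and 0.80 under quantile normalization, a scaling that uses no single factor. The ratio of FABP3 to FABP5 was 0.925, 0.403 and 0.521 in HF, against 0.463, 0.686 and 0.717 in LF. HF01 was highest and HF02 lowest of the 6, the groups overlapped, and the log2 difference was -0.08 (exact permutation p = 0.9).

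**Figure D3:**
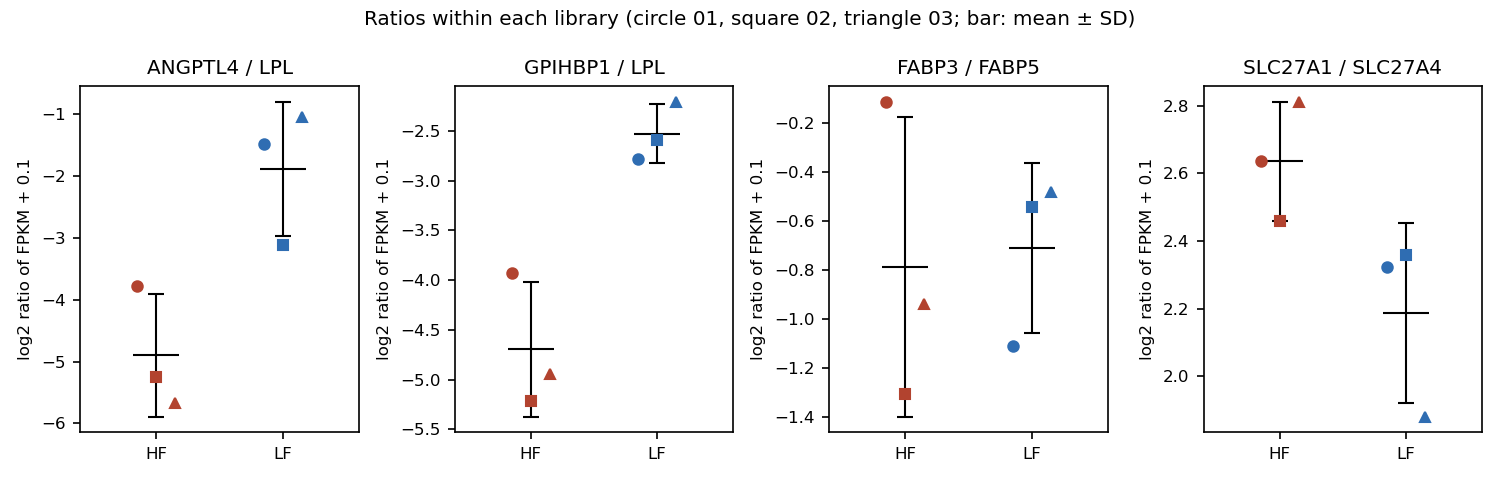
Log2 of 4 within-library ratios of FPKM + 0.1 (vertical axes) in 3 HF pigs (red, left) and 3 LF pigs (blue, right). Points are pigs and bars are the mean ± SD of the log2 ratio (n = 3). ANGPTL4 to LPL and GPIHBP1 to LPL lie lower in every HF pig, SLC27A1 to SLC27A4 lies higher in every HF pig, and FABP3 to FABP5 overlaps.

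By level, CD36 came first with a mean of 301 FPKM over the 6 pigs, above 98.2% of tested genes, and no pig's CD36 was as low as any pig's FABP5, the next gene. FABP5 (107 FPKM), FABP3 (65.6), VLDLR (55.4) and LPL (45.3) followed, and the ranges of neighbours in that order overlapped. A clear gap came after LPL. LMF1 (10.4 FPKM), SLC27A1 (7.74), ANGPTL4 (5.13) and GPIHBP1 (3.61) again overlapped from neighbour to neighbour, though LMF1 was above SLC27A1 in 6 of 6 pigs. SLC27A4 was lowest, at 1.36 FPKM, above 18.5% of tested genes, and its highest pig (1.52 FPKM) was just under the lowest of GPIHBP1 (1.55 FPKM).

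The genes whose log2 level followed LPL most closely over the 6 pigs, among 9397 named genes averaging 1 FPKM or more, were SC5D (Pearson r = 0.996), GTF3C1 (0.994) and RGL1 (0.993). Those closest to ANGPTL4 were WDR54 (0.999), GABARAP (0.995) and AVPI1 (0.993). GABARAP, an autophagy protein, had 313, 282 and 270 FPKM in the HF pigs, against 516, 396 and 477 FPKM in the LF pigs, the same order of pigs within LF as for ANGPTL4. These are descriptions over 6 libraries that share 2 groups.

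Other regulators and partners of the lipase were mostly higher in HF by sign, but none was called. Of 14 tested genes, 10 were positive and 4 negative by sign, where 51.9% of all tested genes were negative. Their median log2 fold change was 0.36, against -0.03 over all tested genes. In limma 0 of 14 had an adjusted p under 0.05, with 2 higher and 0 lower at an unadjusted p under 0.05. By that rule 11.0% of all tested genes were higher and 13.8% lower. HSPG2, the heparan sulfate proteoglycan perlecan of basement membranes, had 13.6, 16.6 and 22.3 FPKM in the HF pigs, against 7.78, 7.81 and 5.97 FPKM in the LF pigs (log2 fold change 1.25, limma adjusted p = 0.0778). SORT1, a sorting receptor that binds the lipase, was at 2.66, 5.10 and 3.72 FPKM in HF, against 2.10, 2.36 and 2.15 FPKM in LF (0.72, limma adjusted p = 0.135). Both were above LF in every HF pig, the reverse of ANGPTL4 and GPIHBP1. Of the 14 genes 3 lay so, against 12.8% of all tested genes. ANGPTL8, another angiopoietin-like regulator of the enzyme, and its activator APOC2 did not pass the filter on low values and were listed at 0 in at least 1 pig.

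Among other members of the same families, 7 of 19 passed the filter, 6 of them with a positive sign and with a median of 0.52, and 0 passed limma (3 higher, SCARB1 and LRP1 among them, and 0 lower at an unadjusted p under 0.05). SCARB1, a receptor for high-density lipoprotein, was at 5.73, 4.36 and 5.34 FPKM in HF, against 3.32, 3.62 and 3.56 FPKM in LF (log2 fold change 0.53, limma adjusted p = 0.135). It was above LF in every HF pig, where VLDLR overlapped. Of the 7 genes 2 lay so, against 12.8% of all tested genes. At an unadjusted p under 0.05 in limma, 11.0% of all tested genes were higher and 13.8% lower. LRP1, a large receptor that takes up lipoprotein remnants, was named after its values were seen: it was at 2.74, 6.03 and 6.76 FPKM in HF, against 2.83, 2.63 and 2.2 FPKM in LF (0.90, limma adjusted p = 0.148), and HF01 lay within the LF range. FABP4, the adipocyte binding protein, was named after its values were seen: it was at 71.7, 136 and 104 FPKM in HF, against 113, 112 and 47.4 FPKM in LF, with its lowest HF pig in HF01 and its lowest LF pig in LF03, as for LPL. FABP6 and FABP2 were listed at 0 in every pig, and SLC27A2, SLC27A3, SLC27A5 and SLC27A6 did not pass the filter.

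Among 17 tested partners of fatty acid uptake at the membrane and of the first steps after it, 10 had a positive and 7 a negative sign with a median of 0.12 (-0.04 where only means of 5 FPKM or more enter), and 0 passed limma (1 higher, DGAT1, and 3 lower, ACSL1, CPT1B and ZDHHC4, at an unadjusted p under 0.05). ACSL1, which activates fatty acids after entry, had 67.1, 35.0 and 61.4 FPKM in the HF pigs, against 109, 96.3 and 110 FPKM in the LF pigs (log2 fold change -1.0, limma adjusted p = 0.0982). DGAT1, which adds the last fatty acid to triglyceride, was at 1.72, 1.66 and 2.21 FPKM in HF, against 1.08, 1.10 and 1.06 FPKM in LF (0.72, limma adjusted p = 0.113). Neither pair of groups overlapped, with ACSL1 below and DGAT1 above LF in each HF pig. CPT1B, which brings fatty acids into muscle mitochondria, and ZDHHC4, which palmitoylates CD36, were named after their values were seen and were also below LF in each HF pig (log2 fold change -0.81 and -0.50). ZDHHC5 of the same list, also named afterwards, went the other way and was above LF in each HF pig (log2 fold change 0.33). Of the 17 genes, 3 lay below and 3 above LF in each HF pig, patterns found in 17.1% and 12.8% of all tested genes. At an unadjusted p under 0.05 in limma, 13.8% of all tested genes were lower and 11.0% higher. CAV1, a caveolar coat protein found with CD36, was named after its values were seen, at 142, 158 and 185 FPKM in HF against 125, 146 and 90.9 FPKM in LF, and its groups overlapped.

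ANGPTL4 is a textbook target of the fatty acid receptors of the PPAR family and of fasting, so genes of that system were set beside it. Of 20 tested genes, 5 had a positive and 15 a negative sign with a median of -0.46. In limma 0 had an adjusted p under 0.05, while 3 were higher (PPARA, HIF1A and PPARGC1B) and 7 lower at an unadjusted p under 0.05. Of all tested genes 11.0% were higher and 13.8% lower by that rule. PDK4, the kinase that shuts pyruvate out of oxidation in fasting, had 21.6, 3.76 and 37.4 FPKM in the HF pigs, against 576, 134 and 220 FPKM in the LF pigs (log2 fold change -4.13, limma adjusted p = 0.0808). PPARA, a receptor of that family, had the opposite sign, at 1.33, 2.36 and 2.95 FPKM in HF, against 0.405, 0.447 and 0.385 FPKM in LF (2.11, limma adjusted p = 0.0702). Neither overlapped between groups, and within LF the pigs had the same order for PDK4 as for ANGPTL4, LF01 above LF03 above LF02. Of the 20 genes, 3 lay above and 6 below LF in every HF pig, against 12.8% and 17.1% of all tested genes.

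The 6 other genes lower at an unadjusted p were named after their values were seen: UCP3, the uncoupling protein of muscle (log2 fold change -1.88), PLIN2, a lipid droplet coat (-2.46), CPT1A (-1.48) and SLC25A20 (-1.29), which move fatty acids into mitochondria, and ACADM (-0.65) and HADHA (-0.89) of beta-oxidation. PLIN2 had 7.94, 2.35 and 4.41 FPKM in the HF pigs, against 37.9, 7.44 and 50.9 FPKM in the LF pigs. LF02 was the LF pig nearest to HF for PLIN2, as for ANGPTL4 and CD36, and of the 7 genes lower at an unadjusted p it was the lowest LF pig in 6. It was also the library with the 4 mitochondrial genes listed at 0, and the part of this library's state in these values was not tested. LIPE of the adipocyte list had 2.93, 8.32 and 7.86 FPKM in HF pigs, against 63.4, 5.43 and 38.0 FPKM in LF pigs, with the LF order of ANGPTL4. GPIHBP1 had another order, with LF02 highest.

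**Figure D4:**
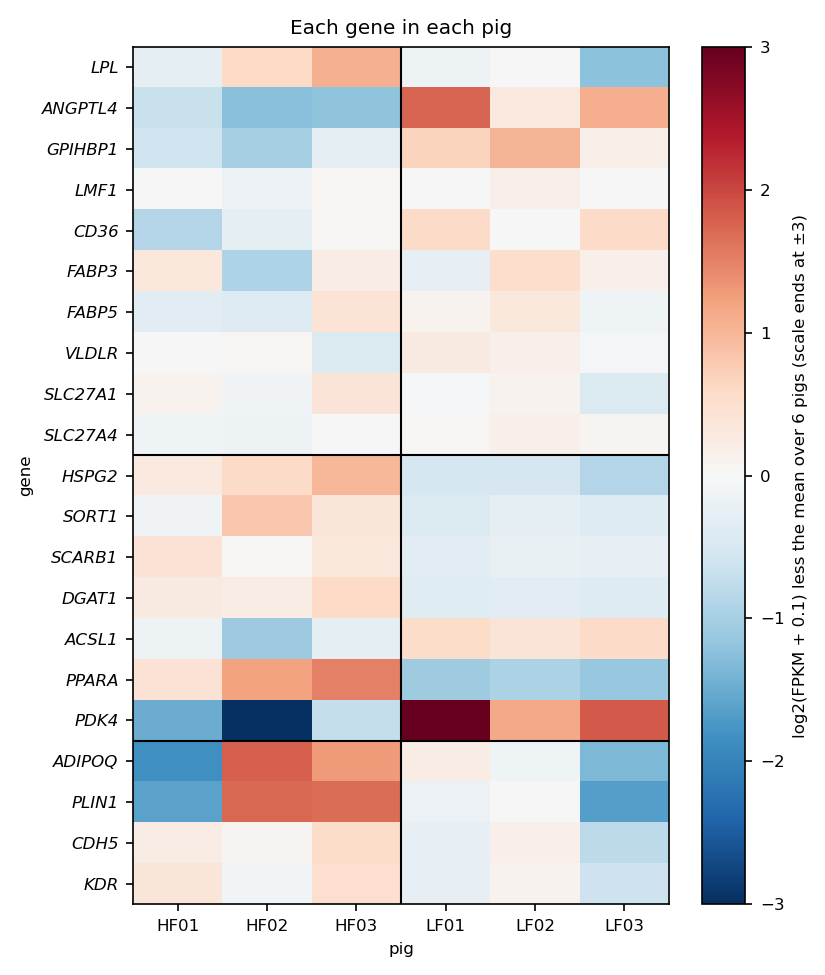
Log2(FPKM + 0.1) of each gene (down the page) in each pig (HF01 to HF03 left, LF01 to LF03 right), less the mean of that gene over the 6 pigs, with the colour scale ending at ±3. The 10 axis genes stand on top, then 7 genes of the related lists, then ADIPOQ, PLIN1, CDH5 and KDR. ANGPTL4 and GPIHBP1 are low in all 3 HF pigs as PDK4 and ACSL1 are, while LPL is lowest in LF03 and, among HF pigs, in HF01.

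Markers of connective tissue and vessel walls were mostly higher in HF by sign. All 10 fibroblast and fibro-adipogenic markers had a positive sign (median 1.03), and their summed level ran from 330 to 834 FPKM in HF and from 297 to 359 FPKM in LF. All 9 smooth muscle and pericyte markers did too (median 1.25), with sums from 198 to 412 FPKM in HF and from 108 to 205 FPKM in LF. In each of these lists 6 genes were higher at an unadjusted p under 0.05, where 11.0% of all tested genes were. In each, 0 passed limma at an adjusted p under 0.05. Of 6 tested Schwann cell markers 5 were positive (median 1.87, 0.88 with a pseudocount of 1 FPKM), with sums from 48.2 to 107 FPKM in HF and from 31.3 to 38.9 FPKM in LF. NCMAP, a myelin protein, was the 1 gene of all these lists with an adjusted p in limma under 0.05 (0.0294), but it was listed at 0 in all 3 LF pigs, entered the test through its HF values alone, and is left out where values above 0 in all 6 pigs are required. LUM and THY1 of the fibroblast list (log2 fold change 1.09 and 1.0) and CNN1 and NOTCH3 of the smooth muscle list (2.65 and 1.10) were above LF in every HF pig. So were 5 of the 10 fibroblast and 3 of the 9 smooth muscle genes in all, against 12.8% of all tested genes. The other lists had 0 genes past limma at an adjusted p under 0.05. Slow and oxidative fibre markers had a median of 0.30 over 10 genes (-0.38 without HF03 and -0.14 without LF02), with 0 at an unadjusted p under 0.05. Macrophage markers had 0.21 over 8 genes (-0.16 without HF03), also with 0 at an unadjusted p under 0.05. Skeletal muscle markers had -0.07 over 9 genes (0.24 under quantile normalization), with 1, ACTA1, lower at an unadjusted p. Where values above 0 in all 6 pigs were required, which leaves ACTA1 out, the median was 0.08 over 8 genes. Its sign turned in 5 of 18 alternative settings. Of the keratinocyte list 2 genes were tested (median -0.23) and of the red blood cell list 1, HBB (0.75), with 0 at an unadjusted p under 0.05. Fast fibre markers had a median of -0.27 over 9 genes (-0.06 without HF03 and -0.02 without LF02) and the sums ran from 24796 to 40595 FPKM in HF and from 33601 to 59628 FPKM in LF, with 1 gene, PVALB, higher at an unadjusted p. The part of these cell types in the values of the 10 genes was not tested.

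**Figure D5:**
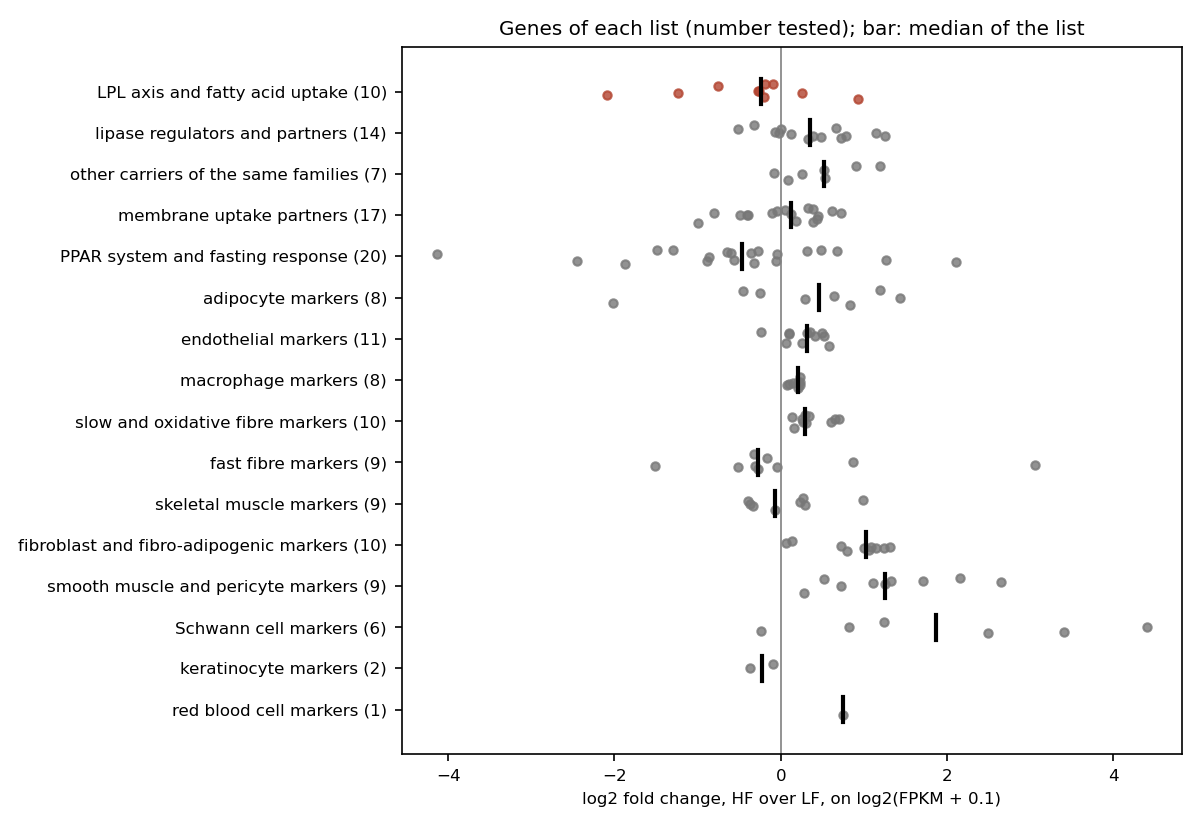
Log2 fold change, HF over LF, on the log2(FPKM + 0.1) scale (horizontal axis), of every tested gene (points) of the 10 axis genes (red) and of the related and marker lists (grey), with the number tested in brackets and the list median as a bar. The 10 axis genes have a median of -0.23, the PPAR and fasting list -0.46, and the fibroblast list 1.03. ACTA1 is not drawn, since it was listed at 0 in 2 HF pigs.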

How the data were processed

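RNA of 6 pigs was extracted with TRIzol, made into TruSeq libraries and sequenced in pairs by Illumina. Per the study's methods fastp cleaning and HISAT2 alignment to Sscrofa11.1 came first, and the authors deposited FPKM values estimated with cufflinks. Such estimates are not whole reads, an exact 0 can be a failed estimate, and overlapping genes can share reads. The table also holds the authors' own DESeq2 comparison, which was not used.

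Of the symbols, 8278 were blank and 24 had become dates. Gene IDs filled 1111 of these and RefSeq spans with at least 80% reciprocal overlap filled 407. Genes averaging 0.5 FPKM or more were tested on log2(FPKM + 0.1) with limma 3.58.1 in R 4.3.3 (eBayes with a mean trend, two-sided, Benjamini-Hochberg over all genes tested, threshold 0.05). The script was tested on simulated data. Ratios were compared by exact permutation of pigs with scipy 1.17.1. Named genes were the 10 axis genes, up to 2 genes of smallest p per list averaging 1 FPKM or more, and the 3 most alike LPL and ANGPTL4. The genes and lists were chosen with earlier results of these data known. Lists got no test. Some genes of the lists are not reported here by name.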

Additional observations from a re-analysis of the deposited data

How the results depend on the processing

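ANGPTL4 passed 0.05 with the replicate number as a block in limma (adjusted p = 0.0478) and without LF02 (0.0330), so the count of the 10 genes called was 1 in each, 0 to 1 over pigs left out and 2 at an adjusted p under 0.10, against 0. The 8 calls over all genes became 1 with no filter, 22 under median-of-ratios scaling (15 higher, 7 lower), 2 with no mean trend, 14 with robust eBayes (9 higher, 5 lower), 14 with the replicate block (6 higher, 8 lower), 704 at an adjusted p under 0.10, and 1 at an adjusted p under 0.01 with a log2 fold change over 1. Without a pig they ran from 1 (without LF01) to 72 (without LF02), with 2 without LF03, 4 without HF02 and 15 without HF01. Within-group deviations of same-numbered pigs correlated at -0.04, 0.09 and 0.02 over the tested genes. With 3 pigs per group this cannot settle whether the numbers pair the pigs. Under quantile normalization the median of the 10 genes was 0.0276, and FABP3 (0.0243), FABP5 (0.103), LMF1 (0.0657) and VLDLR (0.0308) changed sign, as did FABP3 without HF02 (0.121, with -0.50 without HF01 at the other end). The FABP3 to FABP5 difference was 0.185, 0.0011, 0.0081 and 0.0404 without HF02, HF03, LF02 and LF03, and at its lowest -0.413 without HF01. The ratios under quantile normalization were added after the data were seen. The cause of these changes was not tested. Groups of 3 cannot reach an exact permutation p under 0.1, and FPKM holds no depth, so counting error is unknown.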
